A study of Mus musculus with 12 samples.

Results

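The change from the MCE stage, the mitotic clonal expansion that follows hormonal induction, to the differentiation stage (Diff) was examined in 3T3-L1 cells that carried a hairpin against Fto (shFto). The members are the genes with a level of at least 1 TPM in at least 2 of the 4 shFto libraries of these stages. TPM is a share of the transcripts of a library, corrected for transcript length. This held for 14276 of the 55487 genes in the expression table. Of these members, 12357 reached 1 TPM in all 4 libraries, while 1126 reached it in both Diff libraries and in neither MCE library, and 102 the other way round. The gene just inside the limit was Cdk3 (second-highest value 1.00 TPM), and the gene just outside it was Gm13071 (0.998 TPM).

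3T3-L1 is an established mouse fibroblast line, labelled as fibroblast, that turns into adipocyte-like cells. Cells with shFto or with a scrambled control hairpin (shScram), both delivered by lentivirus and selected with puromycin, were sequenced at 3 stages, as preadipocytes (Pre), during MCE and as mature adipocytes (Diff), with 2 libraries in each group. Differentiation used MDI medium (IBMX, dexamethasone and insulin) for 3 days after confluence was passed, then medium with insulin. The day on which each stage was collected is not given in the labels. Which of the study's hairpins against Fto the sequenced cells carried, and whether each line came from a single clone, is not given in the sources used here. Whether the 2 libraries of a group came from separate cultures is not given either, so the p-values measure the spread between libraries, which may be technical. For replicate 1 of shScram at the Diff stage the title names shScram and the treatment entry names the Fto knockdown, and the title was followed.

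Growth-arrested preadipocytes that meet the MDI cocktail re-enter the cell cycle before they stop dividing and switch on the adipocyte program. C/EBPβ and C/EBPδ are induced early and in turn activate PPARγ and C/EBPα, which drive the genes of lipid uptake, lipid droplets and adipokines. FTO removes N6-methyladenosine (m6A) from RNA, and its loss is known to impair adipogenesis in this line.

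Fto itself was at 6.32 and 6.03 TPM in the MCE libraries and 7.47 and 7.05 TPM in the Diff libraries in shFto cells, against 59.1 and 55.7 TPM and 73.5 and 70.8 TPM in shScram cells. The shFto libraries lay below all shScram libraries at both stages. The late change of Fto in shFto cells, meaning the difference Diff minus MCE on the log2(TPM + 1) scale, was 0.20 ± 0.09 (standard error, SE) and did not pass the test (limma, adjusted p = 0.0818). Between 20853 and 24002 genes were above 0 in the 4 libraries, and the sequencing depth behind the TPM values is unknown. Mitochondrial messages made up 4.50% and 4.43% of the TPM at the MCE stage and 3.88% and 3.96% at the Diff stage. Replicates correlated at r = 0.993 across genes for MCE and at 0.990 for Diff.

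Of 12 adipocyte markers, 10 passed the filter, of which 6 rose, 3 of them as DEGs, and 1 fell, and their summed level went from 296.9 and 306 TPM during MCE to 486 and 449 TPM at the Diff stage, against 1655 and 1638 TPM in shScram Diff cells. Slc2a4, the insulin-responsive glucose transporter, was at 0.164 and 0.0996 TPM, and Retn, the gene of resistin, at 0.992 and 0.657 TPM. Fibroblast markers were abundant, with 10 of 12 members past the filter. Their sum was 10902 and 11323 TPM at the Diff stage, against 11085 and 10623 TPM in shScram Diff cells. Endothelial and epithelial markers summed to at most 1.02 TPM in a shFto library of these stages, with none of 6 past the filter in either list. Of 8 macrophage and leukocyte markers only Cd14 and Cd68 passed the filter, and the list's sum lay between 41.2 and 49.6 TPM in these 4 libraries. In bulk RNA, fewer cells with a program and less of its RNA in each cell cannot be told apart.

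The late change in shFto cells was broad. Of 14276 members, 5262 rose (36.9%) and 2644 fell (18.5%), together 55.4%, at an adjusted p under 0.05 in limma, the threshold used for every call below. With a fold change over 2 in addition, 1859 genes rose (13.0%) and 351 fell (2.46%), and these are called DEGs. The DEGs that rose had a median level of 4.28 TPM over the 4 libraries and those that fell 18.6 TPM. Of the rising DEGs, 709 belonged to the 1126 members that reached 1 TPM in the Diff libraries alone, and such genes had to be higher at that stage to enter. Among the 12357 members at 1 TPM or more in all 4 libraries, 1010 rose and 308 fell as DEGs. Both Diff libraries lay above both MCE libraries for 51.5% of members and below them for 29.5%. Exons of Fto, Ube2c, Cdkn1a, Fosl1, Sult1a1, Glul, Thbs1, Fbn1, Mylk, Mettl3, Nrbp2, Pim1 and Gpd1 overlap a gene on the opposite strand, and whether their reads were separated is not known. At the fold threshold itself, Gm45472 stood at 1.00 and Map2k3os at 0.9996 on the log2(TPM + 1) scale, Tgfbi at -0.9985 and Twist2 at -1.001.

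The balance between rising and falling genes depended on the scaling. On the deposited TPM scale the median late change of all members was 0.15, and 66.6% of the called members rose. With median-ratio scaling the median was -0.0023, 4241 members rose and 3960 fell, and 1489 and 500 were DEGs. Quantile normalization gave 3603 and 4036 called members with 975 and 767 DEGs. A correction for GC content gave 3997 and 4507 with 1262 and 567 DEGs. The values of gene lists below are therefore read against the median of 0.15. Counts of list members that rose or fell are read against the 36.9% and 18.5% over all members.

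**Figure D1:**
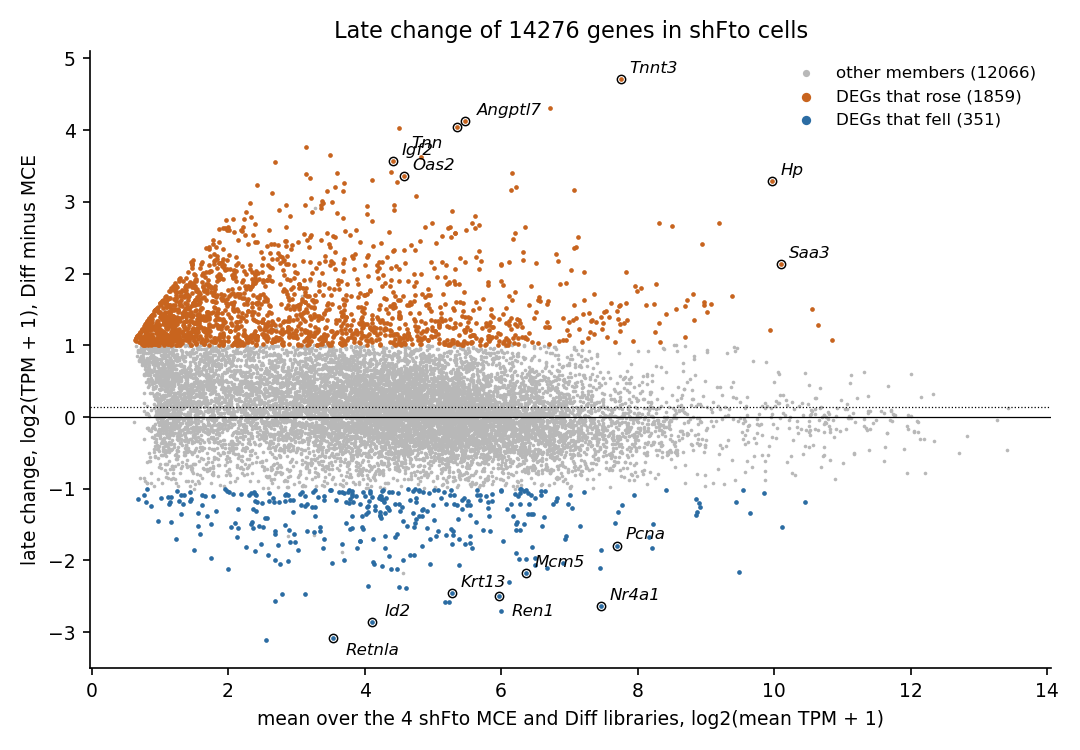
Late change of each of the 14276 members in shFto cells (vertical axis, log2(TPM + 1), Diff minus MCE) against its mean level (horizontal axis, log2 of mean TPM + 1 over the 4 libraries). Orange points are the 1859 DEGs that rose, blue points the 351 that fell, and the dotted line is the median of all members at 0.15. Tnnt3 is the highest named point and Hp stands out at high level, while Nr4a1, Mcm5 and Pcna lie among the falling genes.

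**Figure D2:**
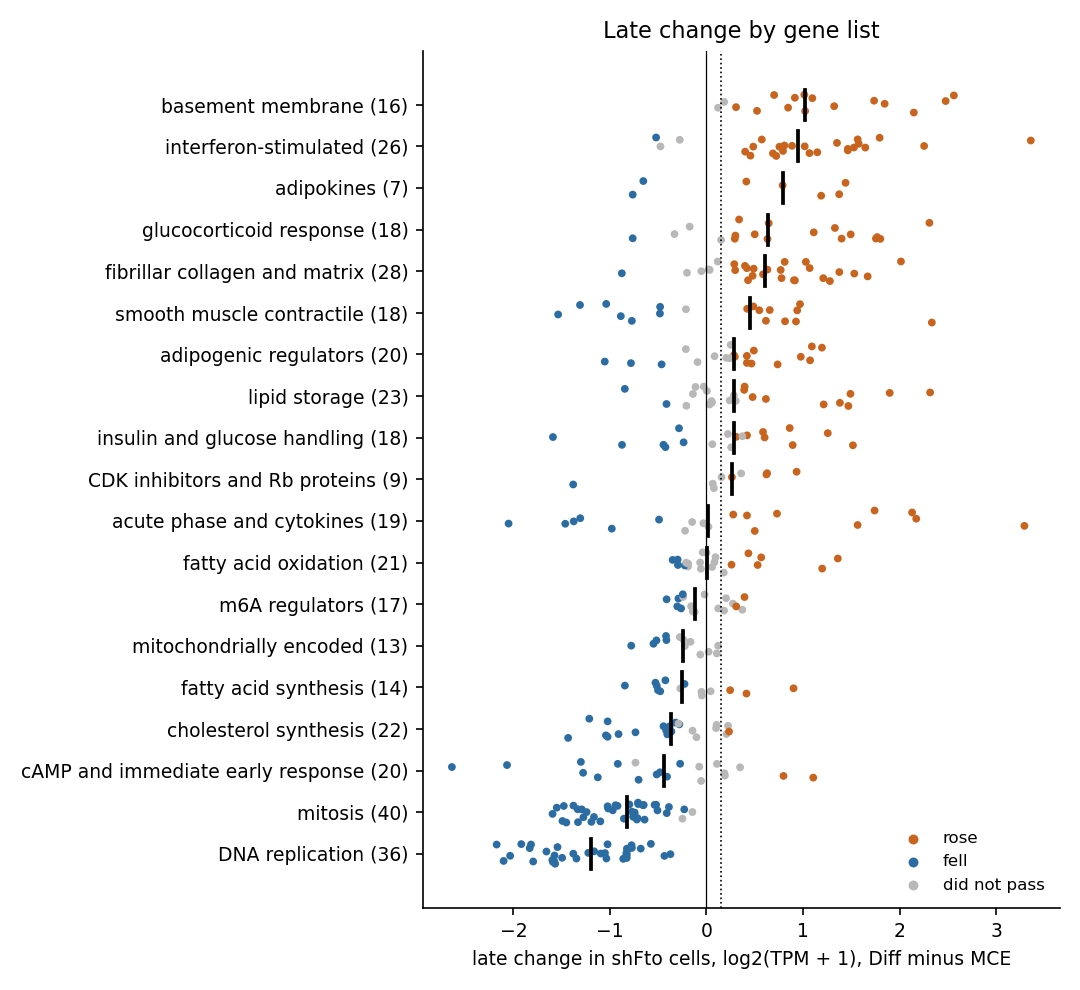
Late change in shFto cells of the members of 19 gene lists that passed the filter (horizontal axis, log2(TPM + 1); the number per list in brackets). Points are genes, orange where they rose, blue where they fell and grey where they did not pass the test, black bars are list medians and the dotted line is the median of all members. DNA replication (-1.19) and mitosis (-0.83) have the lowest medians, basement membrane (1.02) and interferon-stimulated genes (0.95) the highest.

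Among the adipogenic regulators, 11 of the 20 members past the filter rose, 3 fell and 6 did not pass, and the median was 0.29. In shScram cells 10 rose and 4 fell, with a median of 0.34. With median-ratio scaling 7 rose and 3 fell in shFto cells, with a median of 0.13. Cebpb, the early driver of the cascade, was at 1211 and 1273 TPM in the MCE libraries and 574 and 623 TPM in the Diff libraries, with no overlap. It fell by 1.05 ± 0.09 on the log2(TPM + 1) scale (SE, limma adjusted p = 6.98e-06), and its exons overlap Tmem189 on the opposite strand, whose reads may not be separated. With all 12 libraries in the fit it did not pass (adjusted p = 0.224). Klf5, another early factor, fell from 21.9 and 21.1 TPM to 10.6 and 13.8 TPM. Pparg, the master regulator of the adipocyte, was at 13.9 and 11.6 TPM and then at 17.7 and 16.9 TPM in shFto cells, and at 40.3 and 44.6 TPM in shScram Diff cells. Its late change in shFto cells was 0.42 ± 0.11 (adjusted p = 0.00916), but it did not pass under median-ratio scaling (0.27), quantile normalization (0.22) or the GC correction (0.23), nor without MCE replicate 2 (0.30) or Diff replicate 1 (0.39). Cebpa, its partner, was at 3.91 and 3.32 TPM and then 5.77 and 5.19 TPM, with a late change of 0.49 ± 0.16 that was likewise lost under those scalings and without MCE replicate 2 (0.40) or Diff replicate 1 (0.43). Its exons overlap Gm45091 on the opposite strand. Larger rises came from Zfp467, a zinc finger factor that favours fat over bone (4.56 and 3.14 to 9.25 and 10.8 TPM), and from Nr1h3, which encodes the sterol sensor LXRα (1.76 and 2.38 to 4.37 and 6.90 TPM).

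Of 23 lipid storage genes past the filter, 10 rose, 2 fell and 11 did not pass, and the median was 0.28. Over all members 36.9% rose and 18.5% fell. Plin4, a lipid droplet coat protein at chr17:56100591-56109803 of GRCm38, was at 6.02 and 6.30 TPM in the MCE libraries and 35.6 and 33.8 TPM in the Diff libraries. It rose by 2.32 ± 0.09 (SE, limma adjusted p = 7.28e-08), and its exons overlap Hdgfl2 on the opposite strand. The fatty acid transporter Slc27a1 went from 8.11 and 9.16 TPM to 35.3 and 34.4 TPM, near but below its Pre level of 36.3 and 41.2 TPM. Pnpla2, the triglyceride lipase ATGL, rose from 10.0 and 12.1 TPM to 34.7 and 30.0 TPM. The Diff libraries lay above the MCE libraries for all of these genes. In shScram cells the Diff libraries held 114 and 104 TPM of Plin4 and 57.7 and 54.4 TPM of Slc27a1. Of the 23 genes, 20 rose and 0 fell in shScram cells, with a median of 1.01.

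The fatty acid binding protein Fabp4 was at 44.1 and 52.7 TPM and then 138 and 118 TPM, a rise of 1.38 ± 0.13 (limma adjusted p = 1.01e-05). Its level at the Diff stage stayed below the 211 and 231 TPM that shScram cells held at the MCE stage already. Plin1 and Cidec, droplet proteins of mature adipocytes, were not among the genes that rose. Plin1 was at 2.73 and 2.26 TPM and then 2.65 and 2.21 TPM (adjusted p = 0.892). Cidec, which fuses lipid droplets, fell from 2.77 and 3.07 TPM to 0.932 and 1.46 TPM while the shScram libraries went from 15.3 and 13.4 TPM to 37.3 and 36.5 TPM. For Cd36, the fatty acid receptor, the MCE libraries held 1.65 and 1.11 TPM and the Diff libraries 2.71 and 1.24 TPM, so the stages overlapped (adjusted p = 0.282), and the sign of the difference turned without Diff replicate 1. The corresponding shScram Diff values were 148 and 151 TPM. Lpl, the secreted lipase, was at 247 and 281 TPM in Pre cells, 196 and 199 TPM in the MCE libraries and 282 and 269 TPM in the Diff libraries.

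**Figure D3:**
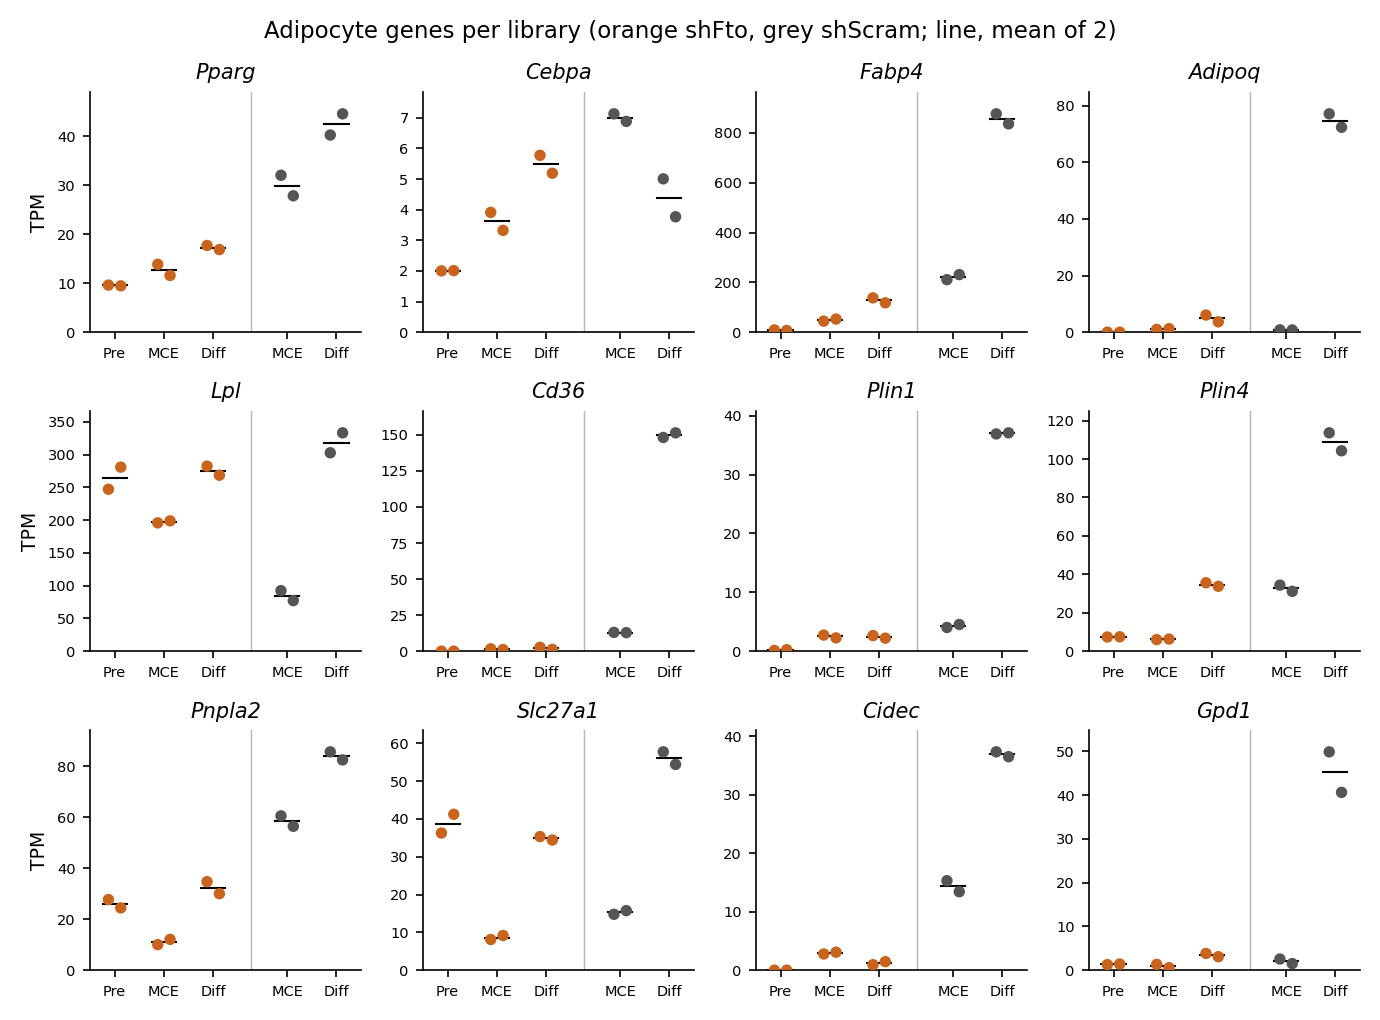
Level of 12 adipocyte genes in each library (vertical axis, TPM, from 0), with shFto libraries in orange at the Pre, MCE and Diff stages and shScram libraries in grey at the MCE and Diff stages; black lines are means of 2 libraries. Plin4, Slc27a1 and Pnpla2 are higher at the Diff stage than at the MCE stage in both lines. Plin4, Slc27a1, Adipoq, Cd36, Plin1, Cidec and Gpd1 are highest in the shScram Diff libraries.

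Of 7 adipokine genes past the filter, 5 rose and 2 fell, with a median of 0.79. Adipoq, which encodes adiponectin and lies at chr16:23146536-23158028, was at 0.984 and 1.25 TPM in the MCE libraries and 6.05 and 3.66 TPM in the Diff libraries in shFto cells. Both Diff libraries were higher, and the rise was 1.44 ± 0.19 (limma adjusted p = 1.41e-04). In shScram cells the MCE libraries held 0.817 and 0.791 TPM and the Diff libraries 77.2 and 72.4 TPM. The 2 lines thus began this step at similar levels, and the late change differed by -3.95 ± 0.27 between them (interaction, adjusted p = 1.74e-05). Cfd, the complement factor adipsin, had the same order, with 2.50 and 1.25 TPM in shFto Diff cells and 52.3 and 49.6 TPM in shScram Diff cells. Rarres2, the chemoattractant chemerin, went from 16.7 and 20.3 TPM to 49.2 and 49.5 TPM, and its exons overlap Lrrc61 on the opposite strand. Angptl4, an inhibitor of lipoprotein lipase, fell from 92.9 and 92.7 TPM to 57.3 and 51.4 TPM in shFto cells, while the shScram libraries went from 66.8 and 62.8 TPM to 106 and 83.6 TPM. Lep, the gene of leptin, was at or near 0 in every library of these stages.

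Enzymes of fatty acid synthesis were mostly lower or level at the Diff stage, with 7 of 14 members that fell, 3 that rose, none that was a DEG and a median of -0.25, against 9 and 1 with median-ratio scaling. Fasn, the fatty acid synthase, was at 149 and 144 TPM and then 76.7 and 85.8 TPM, a difference of -0.84 ± 0.09 (limma adjusted p = 4.23e-05). Scd2, a fatty acid desaturase, went from 459.6 and 439 TPM to 299 and 324 TPM. Neither passed with all 12 libraries in the fit (adjusted p = 0.159 and 0.143). Acacb, the carboxylase isoform that controls mitochondrial fatty acid entry, rose from 2.84 and 2.57 TPM to 5.88 and 5.97 TPM. Of 21 genes of fatty acid oxidation, 6 rose and 4 fell on the TPM scale, with a median of 0.00093. With median-ratio scaling 5 rose and 7 fell. Over all members 36.9% rose and 18.5% fell on the TPM scale. Cpt1a, which loads long-chain fatty acids for import into mitochondria, fell from 87.1 and 88.3 TPM to 66.9 and 70.2 TPM, whereas in shScram cells it rose from 29.5 and 27.2 TPM to 53.7 and 54.7 TPM (difference of late changes -1.26 ± 0.10, adjusted p = 3.81e-05). Cat, the peroxisomal enzyme catalase, was at 45.3 and 43.3 TPM and 39.6 and 38.0 TPM in shFto cells and did not pass. In the shScram libraries it went from 66.8 and 53.1 TPM to 225 and 191 TPM.

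In the list of insulin and glucose handling, 8 of 18 members rose and 6 fell, against 36.9% and 18.5% of all members. The median of the list was 0.28. List members that rose included caveolar genes. Cavin2 went from 11.2 and 9.03 TPM to 30.8 and 30.6 TPM, Cav2 from 60.5 and 59.4 TPM to 142 and 147 TPM, and Cav1, the main coat protein of caveolae, from 455 and 428 TPM to 808 and 833 TPM. The stages did not overlap for any of them. Irs2, an adaptor of the insulin receptor, fell from 85.4 and 84.1 TPM to 26.6 and 28.4 TPM, and Hk2, a hexokinase, from 57.9 and 58.1 TPM to 31.6 and 30.8 TPM. For Hk2 the shScram libraries held 21.3 and 23.8 TPM and then 23.1 and 22.8 TPM, and the late change differed between the lines (adjusted p = 6.13e-04). The exons of Irs2 overlap a gene on the opposite strand.

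Of 22 genes of cholesterol synthesis and uptake, 14 fell, 1 rose and 7 did not pass, 5 of those that fell were DEGs, and the median was -0.37. Hsd17b7, a reductase late in the pathway, was at 47.6 and 44.6 TPM in the MCE libraries and 15.1 and 17.9 TPM in the Diff libraries. It fell by 1.43 ± 0.11 on the log2(TPM + 1) scale (SE, limma adjusted p = 3.22e-06). Sqle, the squalene epoxidase, went from 103 and 98.9 TPM to 59.4 and 61.3 TPM. Cyp51, the sterol demethylase, fell from 17.3 and 16.9 TPM to 8.19 and 7.42 TPM in shFto cells, while the shScram libraries held 14.7 and 15.6 TPM and 15.1 and 17.2 TPM. The exons of Cyp51 overlap Akap9, and those of Tm7sf2 overlap Vps51. For 11 of the 22 genes the fall was smaller or absent in shFto compared with shScram (interaction higher), and for Cyp51 alone it was larger. Over all members the late change was higher in shFto cells for 9.44% and lower for 9.90%. With the shScram Pre libraries in the fit, no gene of this list had a higher late change in shFto cells.

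All 36 genes of DNA replication fell in shFto cells, 23 of them as DEGs, and the list had a median of -1.19. Mcm5, a subunit of the replicative helicase at chr8:75109569-75128439, was at 134 and 135 TPM in the MCE libraries and 28.4 and 29.7 TPM in the Diff libraries. It fell by 2.17 ± 0.09 on the log2(TPM + 1) scale (SE, limma adjusted p = 8.77e-08). Rrm2, a subunit of ribonucleotide reductase, fell from 169 and 161 TPM to 35.9 and 39.5 TPM, and Cdc6, which loads the helicase, from 17.8 and 16.9 TPM to 3.13 and 3.87 TPM. Pcna, the sliding clamp of DNA polymerase, went from 313 and 329 TPM to 95.0 and 88.7 TPM. For Mcm5, Cdc6 and Pcna the Diff libraries of shFto cells lay below the Pre libraries too, which held 55.9 and 48.2 TPM of Mcm5 and 137 and 138 TPM of Pcna, while Rrm2 overlapped its Pre values of 34.0 and 36.4 TPM. All 36 also fell under the quantile, median-ratio and GC settings, and 32 did with all 12 libraries in the fit.

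Of 40 mitotic genes, 38 fell, 16 of them as DEGs, the other 2 did not pass, and the median was -0.83. Top2a, the topoisomerase that untangles chromosomes, was at 305 and 293 TPM in the MCE libraries and 106 and 107 TPM in the Diff libraries. Ccnb1, which encodes cyclin B1 at chr13:100778650-100786570, fell from 81.1 and 80.3 TPM to 42.4 and 51.7 TPM, and Ube2c, the ubiquitin carrier of the anaphase-promoting complex, from 201 and 178 TPM to 109.8 and 121 TPM. Kif23, a kinesin of cytokinesis (23.5 and 23.7 TPM and 20.5 and 19.0 TPM), and Cenpa, the centromeric histone (78.0 and 82.2 TPM and 71.8 and 72.7 TPM), were the members that did not pass. At the Diff stage the shFto values of Ccnb1 and Ube2c were near the Pre values of 43.7 and 44.2 TPM and 113 and 114 TPM. Mki67, the proliferation marker Ki-67, was at 23.7 and 24.9 TPM at the Diff stage against 16.2 and 18.6 TPM in Pre cells.

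In shScram cells all 40 mitotic genes fell, with a median of -2.08 against -0.83 in shFto cells. The fall was smaller in shFto cells for 33 of 40 genes (9.44% of all members had a late change that was higher in shFto cells) and larger for none. Ccnb1 went from 126 and 123 TPM to 24.5 and 23.1 TPM in shScram cells, so that its late change was -2.34 against -0.77 (interaction 1.57 ± 0.13, limma adjusted p = 3.59e-05). Cenpa went from 124 and 127 TPM to 28.8 and 27.2 TPM in shScram cells, a late change of -2.13 against -0.15. For DNA replication the median was -0.99 in shScram and -1.19 in shFto cells. The fall was larger in shFto cells for 14 of 36 genes (9.90% of all members were lower) and smaller for 1, and the others did not pass, among them Mcm5 (interaction adjusted p = 0.314), Rrm2 (0.39) and Cdc6 (0.0535). Pcna fell by 0.92 in shScram and by 1.79 in shFto cells (interaction adjusted p = 0.00135), and Rfc3, a subunit of the clamp loader, by 0.51 and by 1.60. Without replicate 1 of shScram Diff, whose labels disagree, 34 mitotic genes had the smaller fall and 11 replication genes the larger. With all 12 libraries in the fit, which raises the spread, 17 and 3 did.

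**Figure D4:**
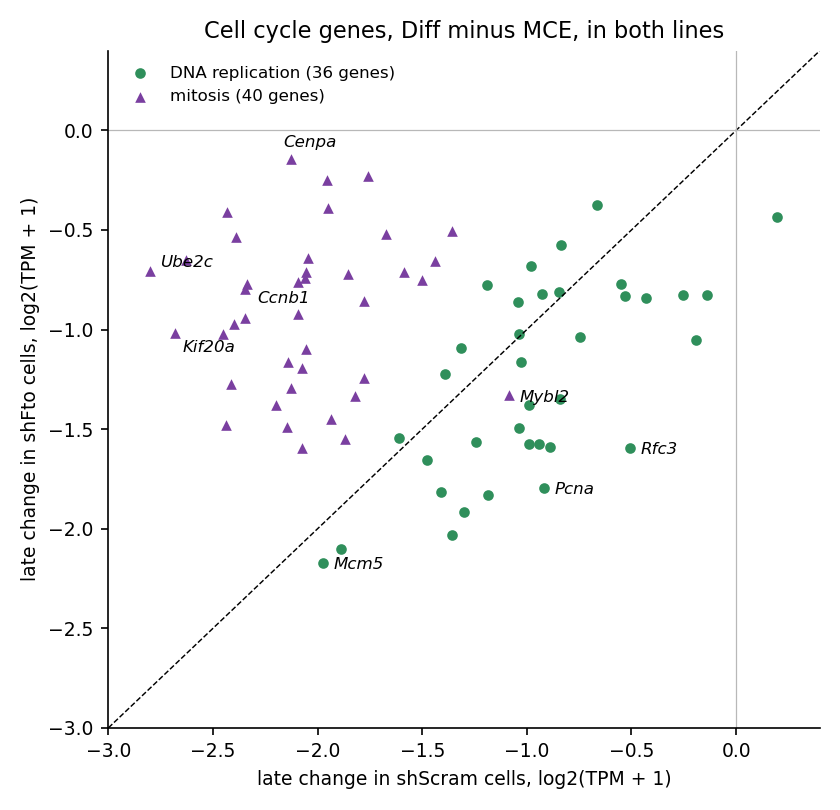
Late change in shFto cells (vertical axis) against the late change in shScram cells (horizontal axis), both on the log2(TPM + 1) scale, for 36 DNA replication genes (green circles) and 40 mitotic genes (purple triangles); the dashed line marks equal change. Mitotic genes other than Mybl2 lie above the line, with Ccnb1 at -0.77 against -2.34, while Pcna and Rfc3 lie below it.

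Promoters of the falling and rising lists were searched for short motifs on both strands in the 250 bases before each RefSeq start (GRCm38.p6). The E2F letters TTTNNCGC were in 30.3% of 33 promoters of DNA replication genes in 6.97% of the promoters of all members and in 4.28% of all 32851 promoters. The cell cycle homology region TTTGAA (CHR) was in 35.3% of 34 promoters of mitotic genes against 10.8% for members and 16.0% of all. CCAAT was in 73.5% of the mitotic and 84.2% of the 19 cholesterol promoters against 36.2% for members and 33.8% of all. The interferon-stimulated response element (ISRE) was in 47.6% of 21 promoters of interferon-stimulated genes against 2.71% for members and 2.98% of all. Of 36 replication genes 28 had a promoter in the table, of 40 mitotic genes 32, of 23 cholesterol genes 16 and of 26 interferon-stimulated genes 18. Matches of different motifs can overlap, and a match is a description of the sequence. Each window of 60 bases below shows the motif in capitals, 5′ to 3′ on the strand of the gene, for the 2 genes per list with the strongest late change among those that hold it.
Mcm5 (chr8:75109334-75109393, + strand): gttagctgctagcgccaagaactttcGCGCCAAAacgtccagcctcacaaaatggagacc
Cdc6 (chr11:98907987-98908046, + strand): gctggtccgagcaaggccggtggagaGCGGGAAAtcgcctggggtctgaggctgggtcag
Top2a (chr11:99024190-99024249, - strand): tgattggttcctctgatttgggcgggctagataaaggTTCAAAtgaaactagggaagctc
Kif11 (chr19:37376322-37376381, + strand): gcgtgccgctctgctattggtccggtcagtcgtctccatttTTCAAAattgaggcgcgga
Hsd17b7 (chr1:169969206-169969265, - strand): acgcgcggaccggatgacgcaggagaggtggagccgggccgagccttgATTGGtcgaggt
Tm7sf2 (chr19:6067866-6067925, - strand): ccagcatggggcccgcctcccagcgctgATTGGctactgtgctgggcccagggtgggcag
Bst2 (chr8:71537562-71537621, - strand): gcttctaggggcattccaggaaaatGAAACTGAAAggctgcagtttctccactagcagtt
Stat2 (chr10:128270251-128270310, + strand): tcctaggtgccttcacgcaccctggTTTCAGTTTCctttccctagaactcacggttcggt
The capitals mark the reverse complement of the E2F letters in Mcm5 and Cdc6 and of the CHR letters in Top2a and Kif11. In Hsd17b7 and Tm7sf2 they mark the reverse complement of CCAAT. They mark the ISRE letters in Bst2 and the reverse complement of these in Stat2. Top2a and Kif11, a spindle motor, also show ATTGG in small letters upstream of the CHR letters.

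Among inhibitors of cyclin-dependent kinases and Rb proteins, 4 of 9 members past the filter rose, 1 fell and 4 did not pass. The median was 0.26, and over all members 36.9% rose and 18.5% fell. Cdkn2a, which encodes p16 and p19ARF, was at 361 and 352 TPM in the MCE libraries and 675 and 689.6 TPM in the Diff libraries, with 864 and 838 TPM in Pre cells. Cdkn1a, the gene of p21, went from 140.0 and 132 TPM to 208 and 213 TPM (late change 0.63 ± 0.06, limma adjusted p = 1.54e-05). The stages did not overlap for either gene, and neither passed with all 12 libraries in the fit. Rbl1, the pocket protein p107, fell from 22.9 and 20.0 TPM to 7.29 and 7.93 TPM. Cdkn1b, the gene of p27, was at 83.4 and 81.8 TPM and then 92.2 and 92.1 TPM, did not pass, and turned its sign under median-ratio scaling and the GC correction.

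Genes known to respond to glucocorticoids were mostly higher at the Diff stage. Of 18, 14 rose, 1 fell and 3 did not pass, with a median of 0.64. Pdk4, the kinase that shuts down pyruvate dehydrogenase, was at 17.4 and 15.1 TPM in the MCE libraries and 83.6 and 85.1 TPM in the Diff libraries. It rose by 2.31 ± 0.09 (SE, limma adjusted p = 7.15e-08). Tsc22d3, which encodes GILZ, went from 118 and 115 TPM to 405 and 413 TPM, and Zbtb16 (PLZF) from 6.85 and 6.47 TPM to 24.7 and 25.5 TPM. Fkbp5, the receptor co-chaperone, was at 96.8 and 95.9 TPM and then 258 and 254 TPM. In shScram cells Tsc22d3 had reached 569 and 546 TPM at the MCE stage already and Fkbp5 458 and 439 TPM, above both stages of shFto cells. Glul, the glutamine synthetase, rose from 95.4 and 93.6 TPM to 244 and 234 TPM in shFto cells, and the shScram libraries held 370.5 and 379.9 TPM and 356 and 335 TPM. The late change was higher in shFto cells for 10 of the 18 genes, where 9.44% of all members were higher, and lower for 3, Sult1a1, Angptl4 and Sgk1. With all 12 libraries in the fit 5 were higher and 1 lower. Sult1a1, a sulfotransferase, was at 3.84 and 3.03 TPM in shFto and 99.9 and 95.8 TPM in shScram Diff cells.

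Of 20 cAMP-responsive and immediate early genes, 11 fell, 2 rose and 7 did not pass, with a median of -0.44. Nr4a1, an orphan nuclear receptor at chr15:101254269-101274795, was at 16.9 and 18.1 TPM in Pre cells, 295 and 310.2 TPM in the MCE libraries and 42.9 and 53.2 TPM in the Diff libraries. It fell by 2.64 ± 0.11 on the log2(TPM + 1) scale (SE, limma adjusted p = 9.37e-08). The shScram libraries held 35.8 and 38.0 TPM during MCE and 33.1 and 39.9 TPM at the Diff stage, so shFto cells were higher at both stages, by far more at the MCE stage. Its relative Nr4a2 fell from 26.2 and 30.0 TPM to 10.6 and 11.02 TPM, and Fosl1, a partner in AP-1, from 147 and 141 TPM to 31.4 and 36.1 TPM. Egr1, a zinc finger factor of the early response, rose from 13.1 and 14.9 TPM to 30.9 and 31.5 TPM.

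Matrix genes were higher at the Diff stage. Of 28 genes of fibrillar collagen and matrix, 22 rose, 1 fell and 5 did not pass, with a median of 0.61. In shScram cells 19 of the 28 rose and 2 fell, with a median of 0.84. Col1a1, the main fibrillar collagen chain, was at 1595 and 1577 TPM in Pre cells, 613 and 565 TPM in the MCE libraries and 1309 and 1419 TPM in the Diff libraries. Thbs1, a matricellular protein, went from 61.7 and 54.6 TPM to 231 and 245 TPM. The member that fell was Timp1, an inhibitor of matrix metalloproteinases, which went from 856 and 931 TPM to 479 and 493 TPM and did not pass with all 12 libraries in the fit (adjusted p = 0.113). Unlike most of the list, Fbn1, the microfibril protein fibrillin, fell in shScram cells, from 27.8 and 22.6 TPM to 13.3 and 14.3 TPM. In shFto cells it was at 107 and 101 TPM and then 139 and 155 TPM (limma interaction, adjusted p = 2.77e-04). The late change was higher in shFto cells for 7 of these 28 genes and lower for 13, against 9.44% and 9.90% of all members. With all 12 libraries in the fit it was higher for 1 and lower for 0.

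Of 16 basement membrane genes, 14 rose, 9 of them as DEGs, none fell and 2 did not pass, with a median of 1.02. In shScram cells 12 of the 16 rose and 1 fell, with a median of 0.61. The late change was higher in shFto cells for 5 of these genes and lower for 1, against 9.44% and 9.90% of all members. Nid2, the nidogen that links laminin to collagen IV, lies at chr14:19751265-19811787 and was at 11.3 and 10.0 TPM in the MCE libraries and 67.3 and 68.0 TPM in the Diff libraries. It rose by 2.56 ± 0.12 (SE, limma adjusted p = 1.32e-07), against 2.68 and 2.67 TPM and 5.05 and 5.65 TPM in shScram cells. Its exons overlap Rtraf on the opposite strand. Col4a5, a collagen IV chain, went from 22.1 and 20.0 TPM to 118 and 125 TPM in shFto cells and from 26.1 and 21.9 TPM to 108 and 111 TPM in shScram cells. The laminin chains Lama5 and Lamb2 rose from 3.42 and 3.12 TPM to 17.1 and 18.7 TPM and from 34.9 and 31.2 TPM to 106 and 119 TPM. For Lama5 the shScram libraries stayed at 0.481 and 0.398 TPM and 0.355 and 0.417 TPM, and the late change differed by 2.20 ± 0.20 (adjusted p = 6.50e-05). Sparcl1, a matricellular protein of differentiating fat cells, was at 11.1 and 11.4 TPM in shFto and 219 and 221 TPM in shScram Diff cells.

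The smooth muscle contractile list moved both ways, with 10 of 18 members that rose, 7 that fell and a median of 0.45. Acta2, smooth muscle actin, was at 1049 and 959 TPM in Pre cells, 165 and 145 TPM in the MCE libraries and 82.6 and 83.9 TPM in the Diff libraries. Tagln, an actin-binding protein, went from 23.0 and 21.3 TPM to 6.52 and 7.43 TPM and Myl9, a myosin light chain, from 21.3 and 14.6 TPM to 8.98 and 7.26 TPM. All 3 fell, while in shScram cells Acta2 went from 8.93 and 6.90 TPM to 23.3 and 30.5 TPM (difference of late changes -2.53 ± 0.19, limma adjusted p = 2.41e-05). Myl9 did not pass with a pseudocount of 0.1 (adjusted p = 0.168) or with all 12 libraries in the fit (0.0527). Mylk, the myosin light chain kinase, rose from 7.27 and 6.596 TPM to 39.4 and 38.6 TPM. The exons of Tagln overlap Pcsk7 on the opposite strand.

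Most interferon-stimulated genes rose from the MCE to the Diff stage, while both Diff libraries lay below both Pre libraries for all 26. Of 26 genes, 23 rose, 13 of them as DEGs, 1 fell and 2 did not pass, with a median of 0.95. The summed level of the list was 6856 and 6961 TPM in Pre cells, 596 and 616 TPM during MCE and 1349.7 and 1231 TPM in the Diff libraries. Oas2, an enzyme that senses double-stranded RNA, was at 122 and 129 TPM, then 3.34 and 3.15 TPM, then 43.9 and 41.3 TPM at these stages, and its late change was 3.36 ± 0.14 (SE, limma adjusted p = 8.77e-08). Bst2, which tethers virus particles at the membrane, went from 2348 and 2276 TPM to 148 and 153 TPM and then to 479 and 423 TPM. Stat2, a transducer of type I interferon, rose from 46.4 and 49.0 TPM to 134 and 133 TPM. Mx1 and Mx2, antiviral GTPases whose sequences are close enough that their reads may be shared, both rose. Isg15, a ubiquitin-like modifier, was at 79.8 and 75.0 TPM and then 111 and 94.9 TPM, and its late change of 0.40 did not pass under median-ratio scaling (0.24), the GC correction (0.26), without MCE replicate 2 (0.36) or without Diff replicate 1 (0.29). Gbp2, a guanylate-binding protein, fell from 16.2 and 17.0 TPM to 10.9 and 11.6 TPM. In shScram cells the sum of the list was 242 and 243 TPM during MCE and 391 and 444 TPM at the Diff stage.

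Of 19 acute phase and cytokine genes, 9 rose and 6 fell, with a median of 0.021, and 7 and 9 did so with median-ratio scaling. Hp, which encodes the hemoglobin scavenger haptoglobin at chr8:109575128-109579172, was at 10.5 and 8.50 TPM in Pre cells, 182 and 187 TPM in the MCE libraries and 1837 and 1794 TPM in the Diff libraries. It rose by 3.29 ± 0.12 (SE, limma adjusted p = 5.27e-08), and the shScram Diff libraries held 95.2 and 91.1 TPM. Saa3, serum amyloid A, went from 403 and 407 TPM to 1949 and 1619 TPM, and Serpina3n, a protease inhibitor, from 40.4 and 40.5 TPM to 195 and 177 TPM. In shScram cells these genes held 31.6 and 29.1 TPM and 11.1 and 12.6 TPM at the Diff stage, and for both the late change was higher in shFto cells (adjusted p = 1.84e-04 and 1.69e-05). C3, the central complement component, was at 755 and 737 TPM in shFto and 2653 and 2540.3 TPM in shScram Diff cells.

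Among the genes of this list that fell, Il6 went from 9.27 and 10.6 TPM to 1.86 and 1.43 TPM, Il11 from 77.5 and 83.9 TPM to 31.2 and 29.8 TPM, and Cxcl5, a neutrophil attractant, from 75.4 and 67.9 TPM to 23.2 and 27.6 TPM. In the 4 libraries the stages did not overlap for these genes. Il11 was still above its Pre values of 5.29 and 6.75 TPM, and the shScram Diff libraries held 0.824 and 0.355 TPM.

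**Figure D5:**
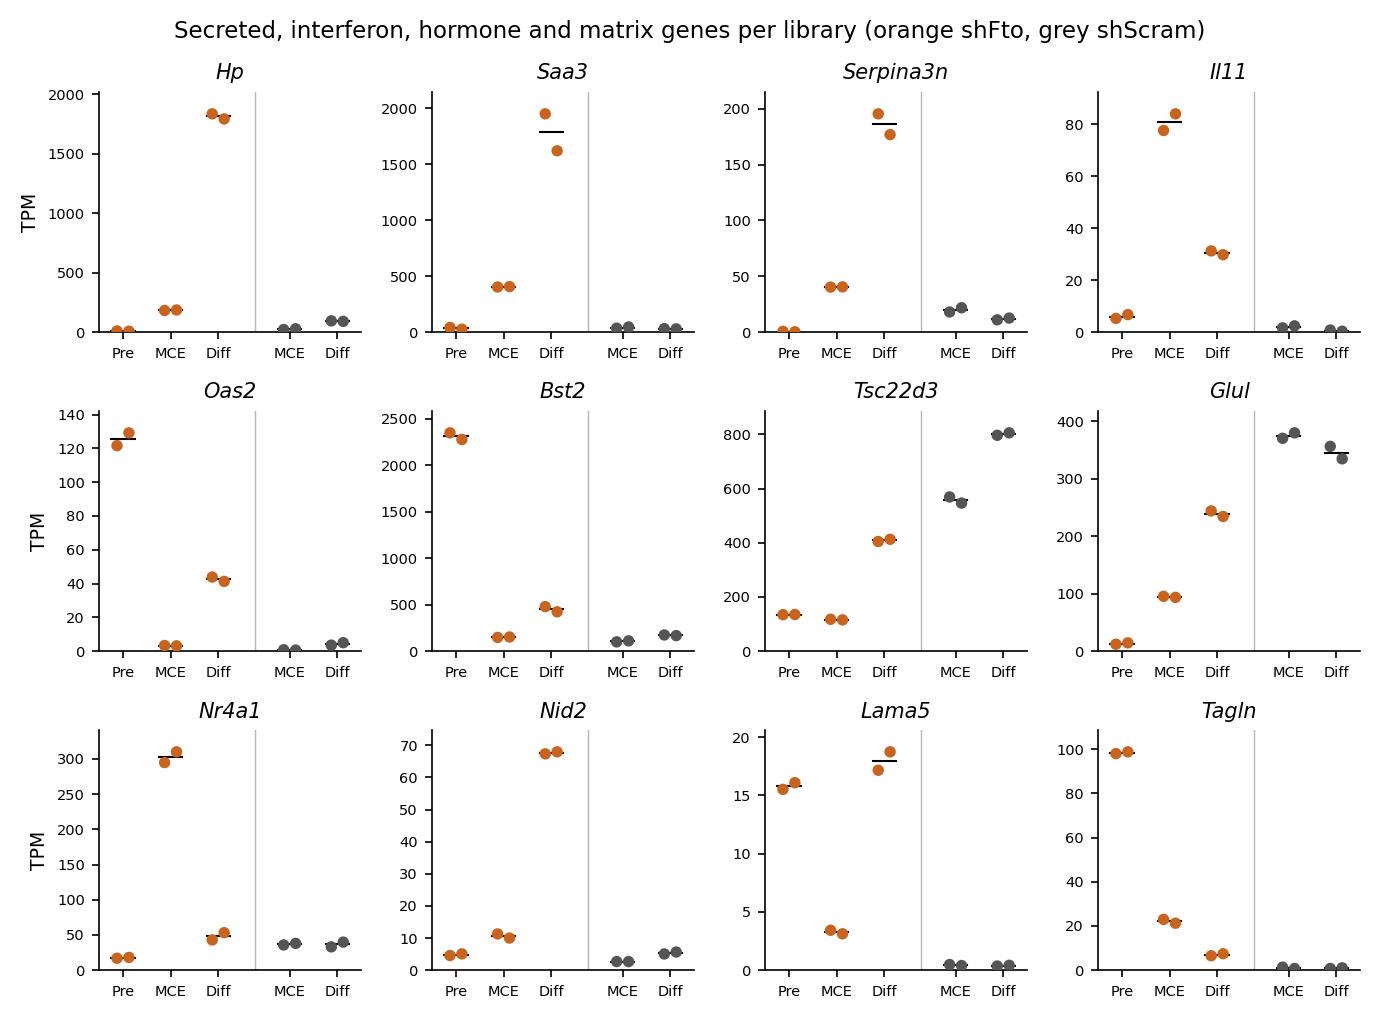
Level of 12 genes in each library (vertical axis, TPM, from 0), with shFto libraries in orange and shScram libraries in grey at the stages named on the horizontal axis; black lines are means of 2 libraries. Hp, Saa3 and Serpina3n are highest in the shFto Diff libraries, Il11 and Nr4a1 in the shFto MCE libraries, and Oas2 and Bst2 in the shFto Pre libraries.

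Of 17 m6A regulators, 2 rose, 5 fell and 10 did not pass, where 55.4% of all members passed, none was a DEG, and the median was -0.12, while with median-ratio scaling 0 rose and 9 fell and with all 12 libraries in the fit 0 and 1 did. Ythdf2, a reader that promotes decay of methylated RNA, was at 21.4 and 23.2 TPM and then 16.2 and 16.8 TPM, and Mettl3, the catalytic methyltransferase, at 20.2 and 19.7 TPM and 15.1 and 17.2 TPM. Both fell, but Mettl3 did not pass without MCE replicate 1 (-0.27), MCE replicate 2 (-0.31) or Diff replicate 1 (-0.20). Alkbh5, the other m6A demethylase, was at 90.8 and 92.0 TPM and 96.2 and 103 TPM and did not pass. Of the 13 mitochondrially encoded messages, 5 fell and 8 did not pass, with a median of -0.24, and the number that fell went from 1 with all 12 libraries in the fit to 12 with the GC correction. It was 2 without MCE replicate 1 and 3 without Diff replicate 1. mt-Cytb, cytochrome b of complex III, was at 6076 and 5853 TPM in the MCE libraries and 3444 and 3506 TPM in the Diff libraries. For 7 of the 13 the late change was lower in shFto than in shScram cells, a number that was 0 with all 12 libraries in the fit, 3 without shFto MCE replicate 1 and 4 without shFto Diff replicate 1. Over all members the late change was lower in shFto cells for 9.90%. In shScram cells the share of mitochondrial messages was 5.55% and 5.12% at the MCE stage and 6.26% and 7.80% at the Diff stage.

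Among the DEGs with a mean of at least 5 TPM, the largest rise was that of Tnnt3, the fast skeletal troponin T at chr7:142498836-142516009. It was at 14.9 and 14.8 TPM in the MCE libraries and 441 and 391 TPM in the Diff libraries, a late change of 4.72 ± 0.21 (SE, limma adjusted p = 1.06e-07). The shScram Diff libraries held 27.0 and 40.4 TPM. The other 5 skeletal muscle markers did not pass the filter, with Myod1 and Ckm at 0 in all 4 libraries. Angptl7, a secreted angiopoietin-like protein, went from 3.34 and 4.31 TPM to 83.3 and 82.0 TPM, and Tnn, the matrix protein tenascin-N, from 3.93 and 3.401 TPM to 68.4 and 83.9 TPM. Igf2, the imprinted growth factor, was at 2.03 and 2.65 TPM and then 37.5 and 39.4 TPM, its Pre libraries held 2.69 and 0.0818 TPM, and its exons overlap Igf2os and Gm49394. Aldh1a1 and Aldh1a7, close paralogs of retinaldehyde dehydrogenase whose reads may be shared, reached 21.05 and 18.6 TPM and 45.5 and 38.4 TPM. Also in this set were Adam33, Apoc1, Nrbp2, 4930486L24Rik, Gm29237 and the hairpin gene Mir5125, with late changes of 3.77, 3.42, 3.62, 3.56, 3.41 and 4.32. The exons of Gm29237 overlap Sptbn1 on the opposite strand, and those of 4930486L24Rik overlap Gm49392 and Gm49393 on the same strand. Mir5125 spans only chr17:23823291-23823369, and the length correction of TPM makes the level of so short a gene uncertain.

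The largest fall was that of Retnla, a resistin-like secreted protein, which was at 0 in both Pre libraries, 19.6 and 19.7 TPM in the MCE libraries and 0.862 and 2.18 TPM in the Diff libraries. Id2, an inhibitor of helix-loop-helix factors, fell from 27.4 and 31.1 TPM to 2.67 and 3.74 TPM. Ren1, the gene of renin, was likewise at 0 in Pre cells, and went from 109 and 101 TPM to 20.4 and 15.5 TPM. Krt13, an epithelial keratin, fell from 63.3 and 66.7 TPM to 10.8 and 11.2 TPM. Of the 3 stages of shFto cells, MCE thus had the highest level of each. The histone genes H4c9, Hist1h4m, Hist1h4n and H3c11 fell by 2.70, 2.58, 2.58 and 2.38 on the log2(TPM + 1) scale, and their near-identical copies make the values uncertain. The other genes of this set were Nr4a1, Gm21718, Mfsd4a and H2-M1. On the opposite strand, the exons of Mfsd4a overlap Elk4 and Gm26892 and those of Gm21718 overlap 4930597G03Rik.

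Compared with the late change of shScram cells, which shares no library with that of shFto cells, the change was partly common. In shScram cells 1293 of the same 14276 genes were DEGs that rose (9.06%) and 437 that fell (3.06%), and without the fold limit 39.9% rose, 15.0% fell and 54.9% changed. These genes were kept by their level in the shFto libraries alone, so genes that reached 1 TPM only in shScram cells are missing. The same filter on the 4 shScram libraries kept 14177 genes, and the counts and shares of this comparison depend on this choice. With a filter over 8 libraries the late change was higher in shFto cells for 1323 genes and lower for 1468, in place of 1348 and 1414. Of the rising DEGs of shFto cells, 825 also rose in shScram cells, which is 44.4% of the shFto and 63.8% of the shScram set, and 9 were DEGs that fell. Of the falling DEGs, 170 were shared, which is 48.4% and 38.9%, and 4 went the other way. Across all members, which are not independent replicates, the late changes of the lines had a Pearson r of 0.673 and a Spearman rho of 0.676. The late change differed between the lines for 19.3% of members. Among rising DEGs it was higher in shFto cells for 565 and lower for 34, and among falling DEGs lower for 123 and higher for 23, counts that share the shFto values with the choice of the genes.

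The genes whose late change was highest in shFto relative to shScram cells included several that rose in shFto and fell in shScram cells. Ly6c1, a surface antigen, went from 293 and 257 TPM to 733 and 781 TPM in shFto cells and from 466 and 476 TPM to 114 and 129.9 TPM in shScram cells. The difference of late changes was 3.400 ± 0.12 (SE, limma adjusted p = 6.86e-07), and reads may be shared with its paralog Ly6c2. Nr1d1, the clock repressor REV-ERBα, rose from 3.29 and 4.25 TPM to 23.2 and 26.4 TPM in shFto cells and fell from 18.2 and 12.5 TPM to 8.18 and 6.11 TPM in shScram cells, and its exons overlap Thra on the opposite strand. Pim1, a serine kinase, went from 11.6 and 11.4 TPM to 30.3 and 33.1 TPM and from 6.67 and 8.20 TPM to 1.65 and 2.18 TPM in turn. The genes with the lowest difference were led by Adipoq and included Sult1a1, Cd36, Plin1 and Gpd1, the glycerol phosphate dehydrogenase of triglyceride synthesis, at 3.82 and 3.07 TPM in shFto and 49.9 and 40.6 TPM in shScram Diff cells. Of 23 lipid storage genes, 12 had a lower and 2 a higher late change in shFto cells, and of 7 adipokines 4 and 0. Of 21 genes of fatty acid oxidation, 8 were lower and 0 higher. Over all members 9.90% were lower and 9.44% higher. The lower counts of these lists were 7, 3 and 3 with all 12 libraries in the fit. With all 12 libraries in the fit the difference passed for 227 genes that were higher and 119 that were lower, in place of 1348 and 1414.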

How the data were processed

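Fragmented total RNA of shFto and shScram 3T3-L1 cells was sequenced, and libraries were grouped by title. The TPM per gene that the authors deposited came from StringTie 2.1.4, after trimming (Trim Galore 0.6.5) and alignment to GRCm38 (HISAT2 2.1.0). Their DEGs came from DESeq2 1.30.1 on counts, which were not used here. Depth is unknown, strand use in counting is not given in the sources used here, and 2 libraries per group limit the precision.

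Here log2(TPM + 1) was fitted with limma 3.58.1 in R 4.3.3 (group means, trended eBayes, two-sided tests, Benjamini-Hochberg over 14276 genes). The fit used 10 libraries, with 5 residual degrees of freedom, and left out the shScram Pre libraries, whose values correlated at 0.931 only. Contrasts were Diff against MCE in each line and their difference. DEGs also had a fold change over 2. In simulated data 194 of 200 genes changed by 2 on the log2 scale were called, with 12 unchanged genes. The simulated spread was normal and few genes were changed, so this does not give the error rate of the calls in the data.

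The members, lists and tests were chosen with earlier results of these data known. Named genes were 12 DEGs at each end of the late change at a mean of 5 TPM or more without overlap, the 3 highest and 3 lowest called genes of each list, a fixed set of genes, and the 8 genes at each end of the difference between lines; further list members are given as examples chosen after their values were seen. Pc was not found under that symbol, and Ddit3 was left out because 2 rows share it. The values of 1 further gene that the rule would name are not reported here. Coordinates and overlaps came from GENCODE M21, with an entry for 99.8% of members, and promoters from RefSeq GRCm38.p6. Alternatives were another pseudocount, filters, scaling, GC correction, other sets of libraries, no trend, the replicate block and each library left out. Python 3.11.15 with pandas 2.3.3 was used for the other steps.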

Additional observations from a re-analysis of the deposited data

Results flagged for a closer look

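The late change of the following genes differed between shFto and shScram cells by the interaction contrast in limma (adjusted p under 0.05, all 14276 members). Values are shFto minus shScram on the log2(TPM + 1) scale, with 2 libraries per group. Replicate 1 of shScram Diff, which enters each value, has labels that disagree, and its Fto level was 73.5 TPM, against 70.8 TPM in replicate 2 and at most 7.47 TPM in any shFto library.

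Among the genes with the largest late changes, the differences were 1.87 for Tnnt3, 1.85 for Mir5125, 2.38 for Angptl7, 3.87 for Tnn and 1.05 for Aldh1a7. They were 1.55 for Adam33, 1.14 for Nrbp2, 2.97 for Igf2 and 3.30 for 4930486L24Rik. Of the falling genes, H4c9 stood at -0.999, Nr4a1 at -2.61, Gm21718 at -3.27, Ren1 at -1.15, Mfsd4a at -3.41 and H3c11 at -1.56. The shScram MCE mean of Gm21718 was 0.961 TPM, so a fall as large as in shFto cells could not show there. At the ends of the difference itself were Wfdc12 (4.52), Gm9531 (3.94), Nr1d1 (3.44), Ly6c1 (3.400), Ly6c2 (2.93) and Pim1 (2.92), and Sult1a1 (-3.37), Rn7sk (-2.91) and Gpd1 (-2.74). The difference of Igf2 did not pass without shScram Diff replicate 2 (2.37), shFto MCE replicate 1 (2.84), shFto Diff replicate 1 (3.01) or shFto Diff replicate 2 (2.94), and that of Mfsd4a not without shFto MCE replicate 1 (-2.87) or shFto Diff replicate 1 (-3.19).

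Adipocyte genes were mostly lower, with Adipoq at -3.95, Cd36 at -3.15, Plin1 at -2.88, Cfd at -2.36, Cidec at -2.15 and Rarres2 at -1.46. Lpl stood at -1.42, Angptl4 at -1.30, Zfp423 at -0.90 and Fabp4 at -0.57. Cebpa (1.07), Plin4 (0.61) and Cebpd (0.36) were higher. In metabolism the values were 0.71 for Elovl5, -0.52 for Fasn, -0.86 for Irs2, -0.90 for Hk2, -1.26 for Cpt1a and -0.79 for Hadhb. Cyp51 stood at -1.12, mt-Cytb at -0.79 and mt-Nd4 at -0.62.

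Of the cell cycle genes, Ccnb1 (1.57), Mki67 (0.92), Ccna2 (0.89), Birc5 (0.66), Cdkn2a (0.64), Cdkn2b (0.42) and Cdkn1a (0.30) were higher and Pcna (-0.88) lower. Of the hormone and early response genes, Pdk4 (1.15), Tsc22d3 (1.28) and Zbtb16 (1.49) were higher and Egr1 (-1.27) and Nr4a2 (-1.78) lower. Matrix and contractile genes gave 1.13 for Eln, -0.61 for Timp1, 1.77 for Nid2, 2.20 for Lama5 and -0.36 for Col1a1. Further values were 2.01 for Prg4, 0.62 for Smtn, -1.44 for Tagln, -1.33 for Actg2, -2.59 for Myl9 and -2.53 for Acta2. The exons of Prg4 overlap Tpr. In shScram cells the mean level of Actg2 was 0.248 TPM at both stages, and that of Tagln 1.05 and then 0.902 TPM. Myl9 was at a mean of 0.262 TPM in the shScram MCE libraries. From such levels a fall as large as in shFto cells could not show on the log2(TPM + 1) scale. Oas2 (1.76), Hp (1.45), Serpina3n (2.88) and Saa3 (2.54) were higher, and Gbp2 (-1.08), Ythdf2 (-0.43) and Ythdc1 (-0.48) lower.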

How the results depend on the processing

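The numbers of DEGs in shFto cells moved by over 1.5 times with a mean of at least 5 TPM (865 rose) and with quantile normalization (975 rose, 767 fell) and the GC correction (567 fell). In shScram cells 701, 633, 831 and 724 rose with the mean of 5 TPM, quantile normalization, median-ratio scaling and the GC correction, and 696 and 678 fell with quantile and median-ratio scaling. Genes with a higher or lower late change in shFto cells numbered 227 and 119 with all 12 libraries. Leaving out each library gave 1767 to 1855 rising and 343 to 373 falling DEGs in shFto cells, 1127 to 1494 and 417 to 515 in shScram cells, and 824 to 1302 higher and 647 to 1364 lower differences, moves of over 1.5 times without any of the 4 shFto libraries or shScram MCE replicate 2. Reversed signs were found for Fto (-0.13, quantile), Cd36 (-0.35 quantile, -0.13 GC, -0.079 without Diff replicate 1, and 0.65 with a call without Diff replicate 2), Plin1 (0.071 without MCE replicate 1 and 0.066 without Diff replicate 2) and Cdkn1b (-0.0047 median-ratio, -0.061 GC). Of the other values of named genes, 1938 kept their direction and side of the threshold, 130 lost and 6 gained the call. Of the differences between lines 286 values kept both and 12 lost the call. With the replicate number as a block, 1863 and 351 genes were DEGs in shFto cells, 1292 and 437 in shScram cells, and 1246 and 1234 differed, and of the named genes Zfp423 (-0.46) and Reep3 (0.32) lost the call while no other did. The labels do not say that the numbers pair the libraries, and deviations of same-numbered MCE and Diff libraries of shFto cells correlated at 0.22. Apart from the scaling and filter settings themselves, the cause of these moves was not tested. TPM keeps no depth, so whether low genes were within counting error could not be judged.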

Other observations

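A few of the marker genes of other cell types and of preadipocytes moved in shFto cells. Dlk1, a surface marker of preadipocytes that is lost in adipogenesis, was at 1284 and 1272 TPM in Pre cells, 484 and 431 TPM in the MCE libraries and 899 and 909 TPM in the Diff libraries. It rose late in shFto cells (0.98 ± 0.08 on the log2(TPM + 1) scale, SE, limma adjusted p = 4.14e-06), and the shScram libraries held 1182 and 1106 TPM and then 888 and 822 TPM. Ly6a, which encodes the progenitor antigen Sca-1, was at 732 and 720.2 TPM and 793 and 820.3 TPM in shFto cells and did not pass, while in shScram cells it fell from 820.1 and 798 TPM to 135 and 114 TPM. Alpl, alkaline phosphatase, fell from 32.6 and 27.5 TPM to 6.47 and 6.21 TPM in shFto cells. These genes were picked after their values were seen.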
